A study of Nannospalax ehrenbergi and Mus musculus with 25 samples.

Results

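The chemokine genes and the genes of their receptors were examined in muscle and tumor tissue of the blind mole rat (Spalax) and the mouse. Members were chosen by gene name, as every Ccl, Cxcl, Ccr, Cxcr or Ackr gene with a number together with Cx3cl1, Cx3cr1, Xcl1 and Xcr1, provided that at least 1 library held a read. They comprised 58 genes of 60812 gene names in either table. In Spalax there were 43 of them among 27988 rows, in mouse 54 among 47593 rows, and 39 were shared. Ccl14, Ccl21, Ccl27 and Cxcl8 were analysed in Spalax only. The 15 members analysed in mouse only were Ccl2, Ccl3, Ccl4, Ccl6, Ccl7, Ccl8, Ccl9, Ccl12, Ccl25, Ccr1, Cxcl1, Cxcl2, Cxcl3, Cxcl5 and Cxcl17. Ccl25 in Spalax, and Ccl26 and Cxcl15 in mouse, were at 0 in every library and were left out.

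RNA sequencing covered 25 libraries from animals given 3-methylcholanthrene (3MCA, a carcinogenic hydrocarbon) and from untreated animals. Treated animals received a single injection under the skin of the left neck flank, of 1 mg in Spalax and 200 µg in mouse. Spalax were caught in the wild, with the treated animals put at 2 to over 10 years of age, and the mice were C57BL/6 males from a breeder, 3 to 4 months old. The Spalax groups were 4 untreated control females sampled on the uninjected side, 4 tolerant animals (3 males and 1 female, at 18 or 30 months) sampled on the injected side where no tumor had grown, 2 females with a granuloma (600 and 976, at 14 and 16 months) and 2 animals with a fibrosarcoma (female 2240 at 18 months and male 2230 at 30 months). The mouse groups were 3 untreated controls (M1, M2 and M5) and 3 animals with a fibrosarcoma (1019, 1023 and 512, at 14, 12 and 11 weeks). Tumor-bearing animals gave a library from the injected side (IS), which was the lesion, and from the uninjected side (UIS), which was muscle. Libraries of controls and tolerant animals carried dual indexes and those of tumor-bearing animals single indexes, so index type and group cannot be told apart when UIS is set against control. Sex differed between the Spalax controls and the tolerant animals, and the side sampled differed as well.

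Chemokines are small secreted proteins that direct the migration of leukocytes and other cells along concentration gradients. They act through G-protein-coupled receptors named for the ligand subfamily they bind (CC, CXC, CX3C or C), while the atypical receptors (Ackr) bind chemokines without this signalling and clear or transport them. Inflammatory chemokines are made on demand by macrophages, stromal cells and tumor cells, and homeostatic ones are made steadily in resting tissue. In tumors they are known for the recruitment of monocytes, T cells, neutrophils and dendritic cells.

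The subfamilies are defined by the spacing of the cysteines near the start of the mature protein, and this spacing can be read in the coding sequence. The stretches below were taken from mouse transcripts of GENCODE vM21 (GRCm38) for ligands that carry the differences described further on. Each is exonic, lies within the coding part and runs 5′ to 3′ on the sense strand. Capitals mark the cysteine codons and, where they precede these directly, the Glu-Leu-Arg codons of the CXC ligands that act on neutrophils.
Ccl5: accactcccTGCTGCtttgcctacctctcc
Ccl11: ccaacttccTGCTGCtttatcatgaccagt
Cxcl1: GAGCTGCGCTGTcagTGCctgcagaccatg
Cxcl5: GAGCTGCGTTGTgttTGCttaaccgtaact
Cxcl10: acggtccgcTGCaacTGCatccatatcgat
Cxcl16: gctggaagtTGTtctTGTgatcgtaccatt
Cxcl14: gggtccaagTGTaagTGTtcccggaagggg
Cx3cl1: atgacgaaaTGCgaaatcatgTGCgacaag

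Adjacent cysteine codons stood at codons 33 and 34 of Ccl5 and at 32 and 33 of Ccl11. A single codon separated them in the CXC ligands, at codons 30 and 32 of Cxcl10, 35 and 37 of Cxcl16 and 25 and 27 of Cxcl14. In Cx3cl1 they stood at codons 32 and 36. Glu-Leu-Arg codons preceded the cysteines in Cxcl1 and Cxcl5, and were not found before those of Cxcl10, Cxcl14 or Cxcl16. Ccl5 lies at chr11:83525778-83530518 on the minus strand, Ccl11 at chr11:82057823-82062955 on the plus strand, Cxcl1 at chr5:90891241-90893115 (plus), Cxcl10 at chr5:92346638-92348889 (minus), Cxcl16 at chr11:70453983-70459984 (minus) and Cxcl14 at chr13:56288643-56296551 (minus).

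Values are normalised read counts, in which each library's reads are divided by 1 factor for that library. Libraries held 17025447 to 23386729 reads assigned to genes in Spalax and 22143060 to 31179183 in mouse. Replicates of a group differed by more than sampling noise, with a chi-square of at least 45 per degree of freedom over 25 pairs. Summed markers of muscle fibers were between 963797 and 4441935 in the libraries other than IS of tumor-bearing animals, and between 187 and 76623 in the lesions. In Spalax the macrophage markers (12 genes) summed to 7663 to 11684 beside a granuloma and 18342 to 54471 within it, and to 5753 to 7019 beside a fibrosarcoma and 16713 to 70789 within it. In mouse the macrophage sum (13 genes) was 1132 to 12377 in UIS and 13447 to 68417 in IS. No macrophage, T-cell or neutrophil marker in the tables was at 0 throughout a group. The part of such cell mixtures in the differences given below was not tested, and in bulk tissue fewer cells of a type and less RNA per cell cannot be told apart.

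In Spalax, Ccl19, Ccl20, Ccl28, Ccr9, Cxcl8 and Cxcr5 stayed under 10 in every library, and Ackr1, Ackr3, Ackr4, Ccl14, Ccl27, Cx3cl1, Cxcl12, Cxcl16 and Cxcr4 were at 10 or more in all 16. In mouse, Ccl1, Ccl20, Ccr6, Cxcl17 and Cxcr1 stayed under 10, and 17 members were at 10 or more in all 9 libraries. Cxcl8, a neutrophil attractant, had a value of 0.615 in fibrosarcoma IS of 2240 and 0 in the other Spalax libraries.

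**Figure D1:**
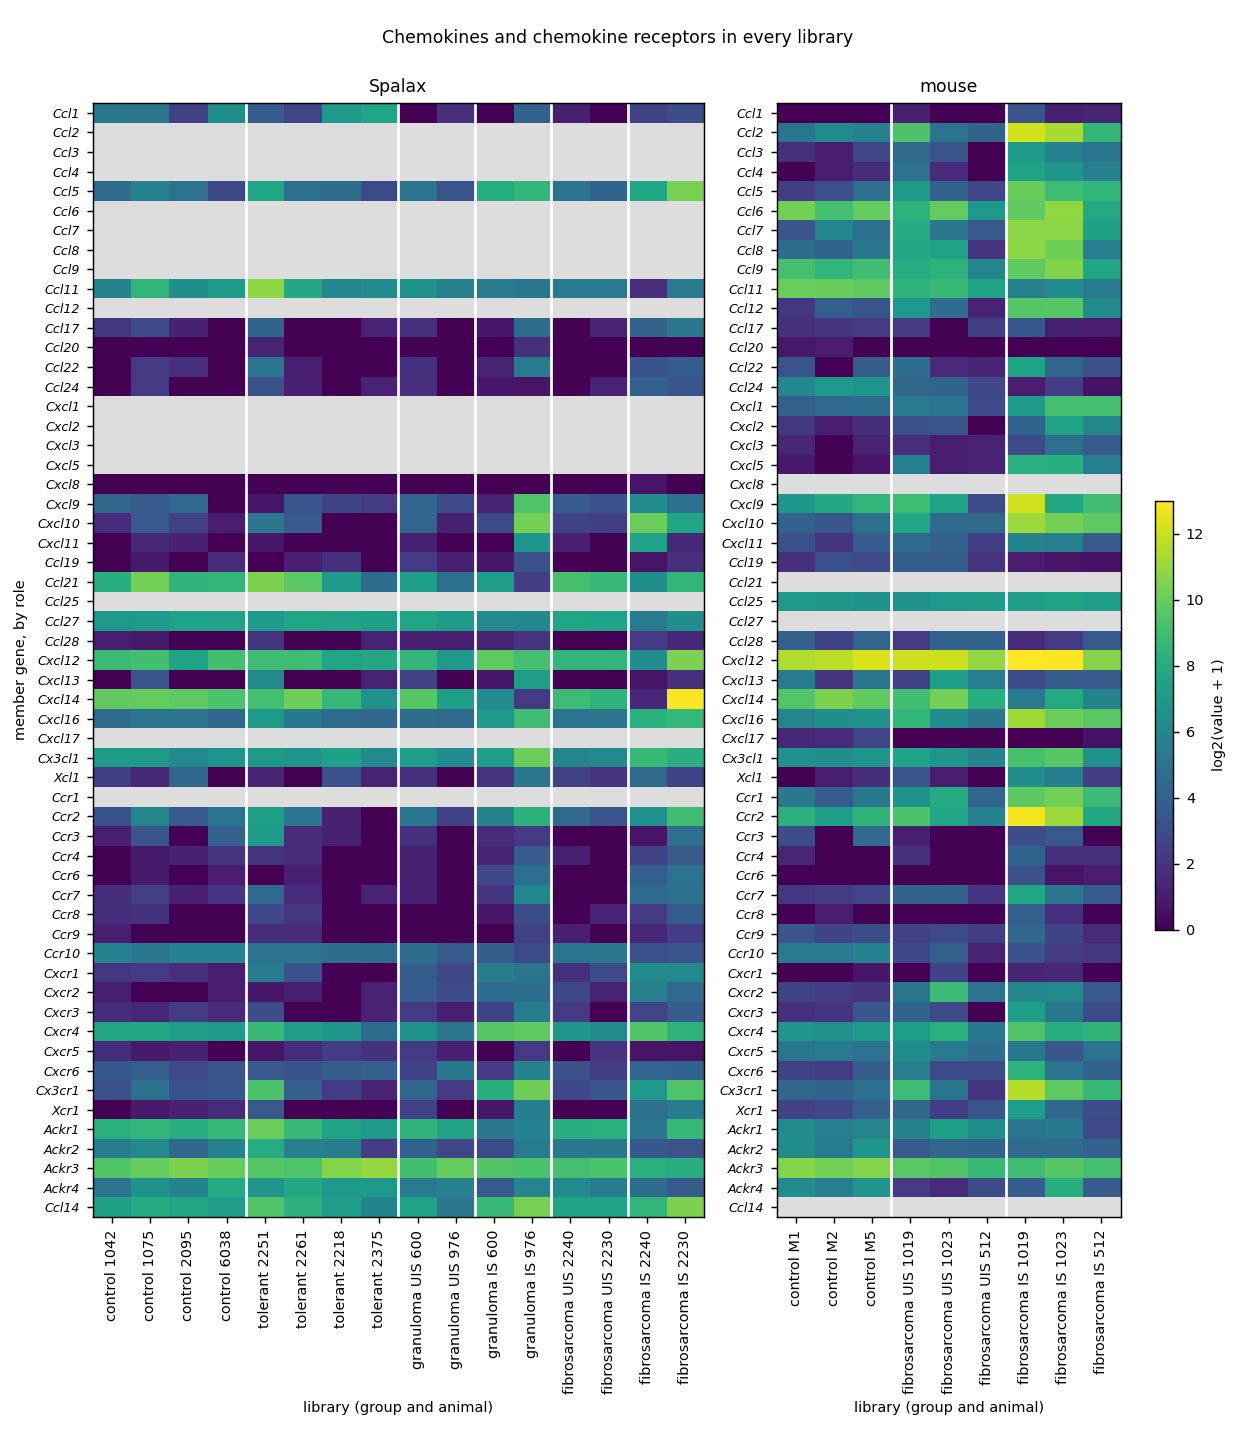
Heat map of log2(normalised read count + 1) for the members (rows) in every library (columns), Spalax on the left and mouse on the right, with color scaled by the value and grey where the table holds no gene of that name or 0 in every library. The lesion columns carry higher values of Ccl5, Cxcl16 and Cx3cr1 than their UIS columns, while Cxcl12 and Ackr3 are high in nearly all columns.

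In Spalax granuloma, an inflammatory lesion without malignant growth, Cx3cr1, Ccl5, Cxcr4 and Cxcl16 rose and Ackr1 fell on the injected side. These were 5 of 23 members tested (21.7%), with 24.3% of all 14735 genes called (11.7% higher and 12.6% lower), so the share of members called was close to that of all genes. The test was limma on log2(value + 1) over genes with a value of at least 10 in 2 libraries, p-values were adjusted over all of them after Benjamini-Hochberg with calls up to 0.05, and differences below are on this log2 scale. The median difference was 1.66 over the 23 members and -0.01 over all genes. All 23 held at least 1 library of 10 or more on each side, and the other 20 members were not tested.

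Among the ligands, Ccl5, which attracts T cells and monocytes, had values of 30.1 (600) and 9.42 (976) in UIS and 264 and 390 in IS. Both IS libraries lay above both UIS libraries, as for 35% of all genes, and the difference was 4.16 ± 0.77 (SE, adjusted p = 0.0211, n = 2 per side). Cxcl16, a membrane-anchored ligand that binds Cxcr6, had 24.1 and 21.2 in UIS and 120 and 514 in IS. It rose by 3.40 ± 0.86 (adjusted p = 0.0428).

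Cx3cr1, the fractalkine receptor of monocytes and resident macrophages, had 18.1 (600) and 3.53 (976) in UIS and 296 and 1149 in IS, a difference of 5.97 ± 1.05 (adjusted p = 0.0186). Cxcr4, the receptor for Cxcl12, had 98.9 and 34.1 in UIS and 769 and 865 in IS, a difference of 3.78 ± 0.64 (adjusted p = 0.0172). Values of either receptor did not overlap between the sides, and this held for 69.8% of all genes. Ackr1, an atypical receptor on venules and red cells that carries chemokines across the vessel wall, had 346 and 177 in UIS and 36.3 and 51.4 in IS. It fell by 2.49 ± 0.63 (adjusted p = 0.0428), and with the animal as a block the adjusted p was 0.0647. Endothelial markers had a median difference of -1.14, and their sum was 9738 to 11412 in UIS and 4497 to 5269 in IS. In this comparison 0 of 6 were called, with 12.6% of all genes called lower. Their part in the Ackr1 difference was not tested.

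Several members differed by as much without passing. For Ccr2, the monocyte receptor for Ccl2, UIS values were 32.6 (600) and 4.71 (976) and IS values 55.2 and 330 (3.30 ± 1.28, adjusted p = 0.116). Ccl14 had 184 and 34.1 in UIS and 454 and 1279 in IS (3.24 ± 0.96, adjusted p = 0.0629). Cxcl14, a ligand made by epithelia and muscle, had 782 and 159 in UIS and 79.9 and 3.63 in IS. Its difference was -4.19 ± 1.55 (adjusted p = 0.105), and with the animal as a block it passed (adjusted p = 0.0244).

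The granulomas of the 2 animals differed from each other in the ligands of Cxcr3, a receptor of activated T cells and NK cells. Cxcl10 had 6.53 in IS of 600 and 1253 in IS of 976, with 18.1 and 1.18 in UIS. Cxcl9 had 1.45 and 684 in the same IS libraries, and 18.1 and 7.07 in UIS. Only animal 976 was higher in the lesion for these ligands, and the fits gave 3.91 ± 2.55 for Cxcl10 (adjusted p = 0.299) and 1.72 ± 2.61 for Cxcl9 (adjusted p = 0.654). Without IS of 976 the Cxcl9 difference was -2.34. Cxcl11 (0 and 110 in IS) and the B-cell attractant Cxcl13 (0.726 and 154 in IS) were high in 976 alone and did not enter the fit. T-cell markers summed to 113 in IS of 600 and 1257 in IS of 976, and to 106 and 33.0 in UIS. Cxcr3 itself had 5.08 and 44.1 in IS.

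The granuloma calls did not hold when any 1 of the 4 libraries was left out, including when 976 was dropped from either side. Those fits left 1 sample on a side, and the share of all genes called in them was not computed. DESeq2 called 12 members and 36.5% of all genes. With reads scaled by each library's total instead of the deposited factors, the median of all genes moved to 0.72 and 7 members rose and none fell, against 4 and 1 (with 22.9% and 7.64% of all genes). Ackr1 then differed by -1.76 (adjusted p = 0.0919).

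In Spalax fibrosarcoma, 14 members rose and 2 fell of 27 tested (59.3%), with 36.3% of all 14696 genes called (17.4% higher and 19% lower). Among the risers were the ligands Cxcl10, Ccl5, Ccl17, Cxcl16 and Cx3cl1 and the receptors Xcr1, Cx3cr1, Ccr7, Ccr6, Cxcr1, Ccr2, Cxcr2 and Cxcr4, and Ackr3 and Ccr10 fell. The median difference was 2.41 over the 27 members and 0.03 over all genes. Of the 27, 9 reached the minimum value only through their IS libraries, so that they had to differ. These were Ccl17, Ccr6, Ccr7, Cx3cr1, Cxcl10, Cxcr1, Cxcr2, Cxcr6 and Xcr1, of which all but Cxcr6 were called, and their differences are given below as descriptions, with no p. Ccr10 passed through UIS alone, and the same holds for it. Among the 17 with a value of 10 or more on both sides, 6 rose and 1 fell. The share called among all genes with such values was not computed, so 59.3% beside 36.3% is a description only. The other 16 members were not tested, among them Cxcl11, a ligand of Cxcr3, with 1.21 (2240) and 0 (2230) in UIS and 188 and 1.80 in IS.

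Cxcl10, an interferon-induced attractant of T cells, was one of the ligands that passed through IS alone. Its values were 4.85 (2240) and 4.26 (2230) in UIS and 1037 and 200 in IS, a difference of 6.36 ± 0.90. Ccl5 had 30.3 and 17.1 in UIS and 225 and 1311 in IS (4.52 ± 0.96, adjusted p = 0.0267). In Cxcl10 the higher lesion value belonged to 2240 and in Ccl5 to 2230. Cxcl16 had 30.3 and 34.1 in UIS and 320 and 407 in IS, with a difference of 3.45 ± 0.39 (adjusted p = 0.00694). Cx3cl1 (fractalkine), the ligand of Cx3cr1, had 61.8 and 68.2 in UIS and 428 and 290 in IS (2.42 ± 0.39, adjusted p = 0.0143). The lesions of both animals lay close together for Cxcl16 and Cx3cl1 and above the uninjected side, and sides that did not overlap were found for 74.3% of all genes. Ccl17, which attracts T cells through Ccr4, had 0 and 1.42 in UIS and 16.6 and 34.8 in IS (4.01 ± 0.74).

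Of the receptors of dendritic cells and lymphocytes, Xcr1, Ccr7 and Ccr6 were at 0 in UIS and passed through IS alone. Others held reads in UIS, such as Cxcr6 with 8.5 (2240) and 4.3 (2230). Cxcr5 had 0 and 2.84 in UIS and 0.615 and 0.600 in IS. Xcr1, a receptor of cross-presenting dendritic cells, was 0 in both UIS libraries and 27.1 (2240) and 39.6 (2230) in IS. Ccr7, which guides dendritic cells and T cells to lymph nodes, was likewise 0 in UIS and 21.5 and 26.4 in IS. Ccr6, the receptor for Ccl20, was 0 in UIS and 14.1 and 28.2 in IS. Values of Xcr1, Ccr7 and Ccr6 were low in the lesions as well. Of their ligands, Xcl1 had 4.85 and 2.84 in UIS and 21.5 and 5.40 in IS, Ccl20 was 0 in both lesions, and Ccl21, which binds Ccr7, had 597 and 425 in UIS and 88.5 and 378 in IS.

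Receptors of monocytes and macrophages rose as well. Cx3cr1 had 6.06 (2240) and 9.95 (2230) in UIS and 121 and 684 in IS (5.04 ± 0.96). For Ccr2 the values were 21.8 and 9.95 in UIS and 91.6 and 507 in IS (3.78 ± 0.99, adjusted p = 0.0437). The sum of macrophage markers was higher in the lesions as well, with 5 of 12 called higher (17.4% of all genes were). The larger sum was in 2230, which also held the larger Cx3cr1 and Ccr2 values. T-cell markers were called higher in 7 of 7 tested (17.4% of all genes were), with sums of 51.2 and 61.8 in UIS and 334 and 737 in IS. How many of the macrophage and T-cell markers reached the minimum value through IS alone was not counted, so both counts are descriptions only.

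The neutrophil receptors for Glu-Leu-Arg chemokines were Cxcr1, with 2.42 (2240) and 7.11 (2230) in UIS and 75.0 and 71.4 in IS, and Cxcr2, with 6.06 and 1.42 in UIS and 49.8 and 20.4 in IS. The difference was 3.82 ± 0.63 for Cxcr1 and 2.99 ± 0.83 for Cxcr2. Neutrophil markers summed to 217 and 336 in UIS and to 6050 and 1288 in IS, and 1 of 4 tested was called higher, again with 17.4% of all genes. Passage of these 4 through IS alone was not counted either. Cxcr4 had 116 and 71.1 in UIS and 713 and 336 in IS (2.41 ± 0.53, adjusted p = 0.0288).

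The decreases were smaller. Ackr3, an atypical scavenger of Cxcl12, had 573 (2240) and 627 (2230) in UIS and 299 and 272 in IS, and fell by 1.07 ± 0.26 (adjusted p = 0.0368). Ccr10, the receptor for Ccl27 and Ccl28, had 32.7 and 34.1 in UIS and 7.99 and 9.60 in IS, a difference of -1.82 ± 0.49. With the animal as a block neither was called, and Ackr3 had an adjusted p of 0.0751. With reads scaled by each library's total the median of all genes moved to 0.83, 17 members rose and none fell (with 35.2% and 11.3% of all genes). Ackr3 then differed by -0.26 (adjusted p = 0.429) and Ccr10 by -1.07, which was not called. Ccl27, a skin-associated ligand of Ccr10, had 196 and 188 in UIS and 40.0 and 83.4 in IS (-1.72 ± 0.51, adjusted p = 0.0599).

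The 2 fibrosarcomas differed in Cxcl12 and Cxcl14. Cxcl12, the ligand of Cxcr4 and Ackr3, had 384 (2240) and 382 (2230) in UIS and 81.1 and 1391 in IS. Cxcl14 had 484 and 344 in UIS and 1.84 and 7694 in IS. Both were far below UIS in the lesion of 2240 and far above it in that of 2230, and the fitted differences were -0.18 ± 1.38 for Cxcl12 and -1.47 ± 3.81 for Cxcl14 (adjusted p = 0.928 and 0.788). With edgeR the difference of Cxcl12 was 0.94 and with DESeq2 0.90, and scaled by total reads it was 0.62. For Cxcl14 edgeR gave 3.21 and DESeq2 3.18. Without IS of 2240 Cxcl14 was called higher (4.23, adjusted p = 0.00791) and without IS of 2230 it was called lower (-7.17, adjusted p = 0.0112), so its direction was that of the lesion library kept. The same held for Cxcl12, at 1.86 (adjusted p = 0.00930) and -2.23 (adjusted p = 0.0170). Ackr1 was likewise below UIS in 2240 and above it in 2230, with 286 and 300 in UIS and 33.8 and 405 in IS. Ccl11 had 38.8 and 38.4 in UIS and 2.46 and 41.4 in IS, far lower in 2240 and nearly level in 2230.

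The calls in fibrosarcoma depended on which library was present. No member was called without UIS of 2240 or without UIS of 2230, and 23 were called without IS of either 2240 or 2230. A set of 12 calls held under every alternative that kept all libraries, among them those of Ccl17, Ccl5, Ccr6, Ccr7, Cx3cl1, Cx3cr1, Cxcl10, Cxcl16, Cxcr1, Cxcr4 and Xcr1. Of these, Ccl17, Ccr6, Ccr7, Cx3cr1, Cxcl10, Cxcr1 and Xcr1 passed through IS alone, so that their persistence says nothing further.

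**Figure D2:**
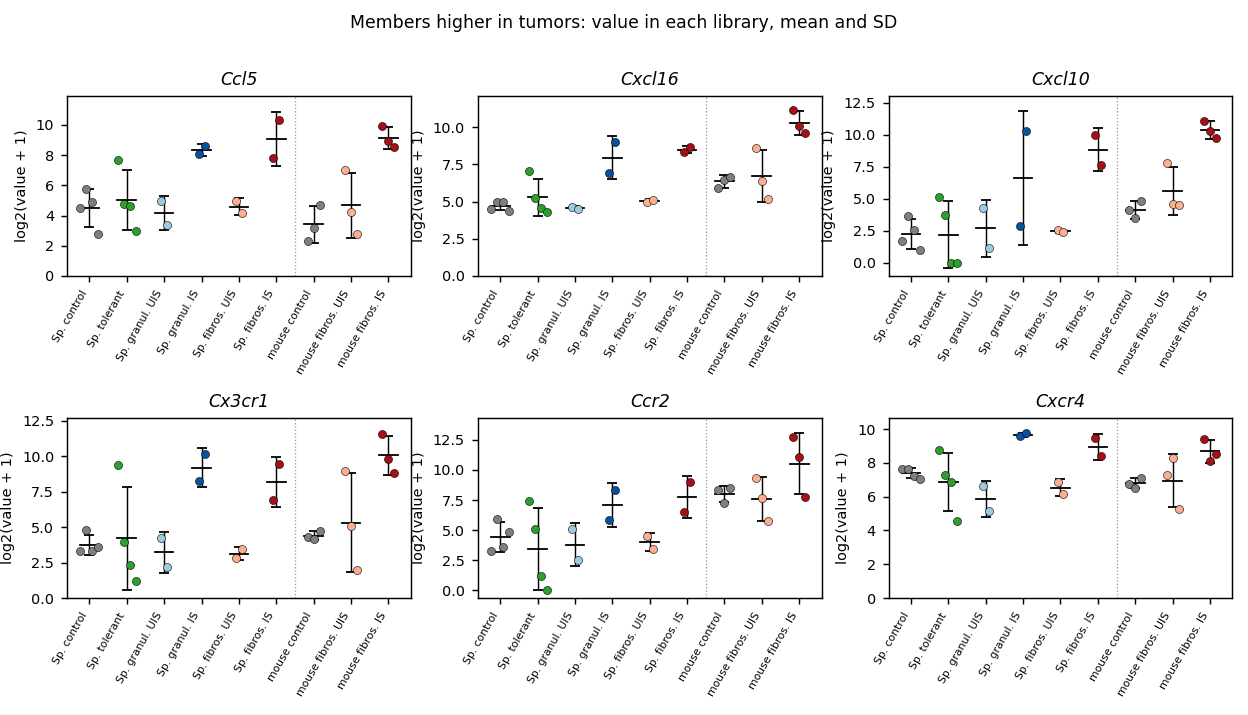
Normalised read counts of members called higher in a lesion, as log2(value + 1) for each library, grouped as control, tolerant, UIS and IS, with the group mean and SD as bars. In Ccl5 the Spalax lesion libraries lie between 225 and 1311 and those of mouse between 370 and 996, above every UIS library of the same species.

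In mouse fibrosarcoma, the ligands Cxcl10, Cxcl5, Ccl4, Ccl5, Ccl7, Cxcl1, Cxcl2 and Cxcl16 and the receptor Ccr1 were among the members that rose, and Ccl11 and Cxcl14 fell. In all, 12 of 39 members tested were called (30.8%), with 45.1% of all 15220 genes called. In this fit, which leaves out the pairing of the sides, the share of members called was below that of all genes. That difference was not tested, and its direction turned around with the animal as a block. Called members were 10 higher (25.6%, with 22.8% of all genes) and 2 lower (22.3% of all genes). The median difference was 2.48 over the 39 members and 0.11 over all genes. Cxcl2 and Ackr4 passed the minimum value through IS libraries only, and 15 members were not tested because fewer than 3 libraries reached a value of 10. These included Xcl1, a ligand made by NK and T cells, with 9.67 (1019), 1.03 (1023) and 0 (512) in UIS and 81.7, 42.7 and 4.21 in IS. They also included Ccl24, with 19.4, 16.5 and 5.76 in UIS and 1.03, 4.15 and 0.526 in IS.

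With the animal as a block, 24 of the 39 members were called (22 higher and 2 lower) and 44.1% of all genes. The share of members called was then above that of all genes, a difference that was not tested either. The 12 added members, all higher, were Ccl2, Ccl3, Ccl6, Ccl8, Ccl9, Ccl12, Ccl22, Ccr2, Cx3cl1, Cx3cr1, Cxcr3 and Cxcr6. Ccl2, the main attractant of monocytes, is an example. Its UIS values were 653 (1019), 30.9 (1023) and 17.3 (512), and its IS values 4393, 2535 and 387. Each mouse was higher in its tumor, yet UIS of 1019 exceeded IS of 512, and the difference of 4.49 ± 1.52 had an adjusted p of 0.0502 without the block and 0.0120 with it. Its receptor Ccr2 had 648, 205 and 51.8 in UIS and 6911, 2119 and 213 in IS (2.93 ± 1.42, adjusted p = 0.135, and 0.00977 with the block).

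The Glu-Leu-Arg ligands Cxcl1, Cxcl2, Cxcl3 and Cxcl5 were analysed in mouse only, and the 3 of them that were tested rose. Cxcl1 had 38.7 (1019), 33.0 (1023) and 7.20 (512) in UIS and 139, 568 and 558 in IS, and rose by 3.99 ± 0.84 (adjusted p = 0.0108). Cxcl5 had 48.4, 1.03 and 1.44 in UIS and 304, 287 and 47.4 in IS (4.70 ± 1.4, adjusted p = 0.0340). Cxcl2 had 8.46, 9.28 and 0 in UIS and 16.5, 183 and 66.3 in IS (3.71 ± 1.22), having passed through IS libraries alone. The lesion of 1019 held the lowest Cxcl1 and Cxcl2 but the highest Cxcl5. Their receptor Cxcr2 had 32.7, 469 and 27.3 in UIS and 63.1, 72.4 and 11.6 in IS (-0.97 ± 1.26, adjusted p = 0.554), and without UIS of 1023 the difference was 0.33. That library had a summed neutrophil marker value of 15974, with 289 and 393 in the other UIS libraries and 414 to 1760 in the tumors.

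Among the Cxcr3 ligands, Cxcl10 had 219 (1019), 22.7 (1023) and 21.6 (512) in UIS and 2193, 1234 and 873 in IS, and rose by 4.77 ± 0.93 (adjusted p = 0.00884). Cxcl9 had 496, 187 and 7.20 in UIS and 4240, 221 and 521 in IS (3.11 ± 1.72, adjusted p = 0.182). Cxcl11 had 4.32 to 21.8 in UIS and 12.1 to 55.3 in IS (1.39 ± 0.82, adjusted p = 0.206). Each ligand was higher in the tumor of every mouse, and only Cxcl10 passed.

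Of the CC ligands, Ccl5 had 131 (1019), 17.5 (1023) and 5.76 (512) in UIS and 996, 499 and 370 in IS (4.48 ± 1.08, adjusted p = 0.0170). Ccl4, an attractant of monocytes and T cells, had 27.8, 2.06 and 0 in UIS and 192, 109 and 50 in IS (4.53 ± 1.26, adjusted p = 0.0268). Ccl7, a monocyte attractant, had 252, 34.0 and 11.5 in UIS and 1692, 1704 and 172 in IS (4.05 ± 1.34, adjusted p = 0.0471), and UIS of 1019 again exceeded IS of 512. Cxcl16 had 383, 81.5 and 34.6 in UIS and 2272, 1065 and 802 in IS (3.59 ± 0.89, adjusted p = 0.0186). In every one of these ligands UIS of 1019 was the highest UIS library, and its macrophage sum of 12377 was the highest of the 3.

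Ccr1, a monocyte and neutrophil receptor for several CC ligands, had 99.2 (1019), 251 (1023) and 18.7 (512) in UIS and 854, 1214 and 458 in IS (3.30 ± 0.93, adjusted p = 0.0282). Cx3cr1 had 482, 32.0 and 2.88 in UIS and 2963, 886 and 455 in IS, a difference of 4.75 ± 1.71 that missed the threshold (adjusted p = 0.0606) and passed with the block (0.0145). Macrophage markers were called higher in 8 of 13 in the same comparison, with 22.8% of all genes called higher. Passage of these 13 through IS alone was not counted, so this is a description only.

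The 2 decreases were in Ccl11 and Cxcl14. Ccl11 (eotaxin), which attracts eosinophils through Ccr3, had 354 (1019), 438 (1023) and 193 (512) in UIS and 49.6, 75.3 and 40.5 in IS, and fell by 2.52 ± 0.45 (adjusted p = 0.00695). Cxcl14 had 528, 1267 and 297 in UIS and 41.4, 250 and 56.9 in IS, and fell by 2.78 ± 0.82 (adjusted p = 0.0326). With reads scaled by each library's total the median of all genes moved to 1.16, and 20 members rose and 1 fell (with 49.6% and 11% of all genes). Ccl11 was still lower on that scale (-1.47, adjusted p = 0.0494), and Cxcl14 had -1.73 (adjusted p = 0.125).

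DESeq2 called 20 members in mouse and 53.7% of all genes, and leaving out libraries gave 4 to 16 calls. The share of all genes called with a library left out was not computed. There were 5 without IS of 1019, 4 without UIS of 1023 and 5 without IS of 1023, and Ccl11, Cxcl1 and Cxcl10 were called whichever library was left out. Ccl11, Ccl5, Ccr1, Cxcl1, Cxcl10 and Cxcl16 were called under every alternative that kept all libraries.

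**Figure D3:**
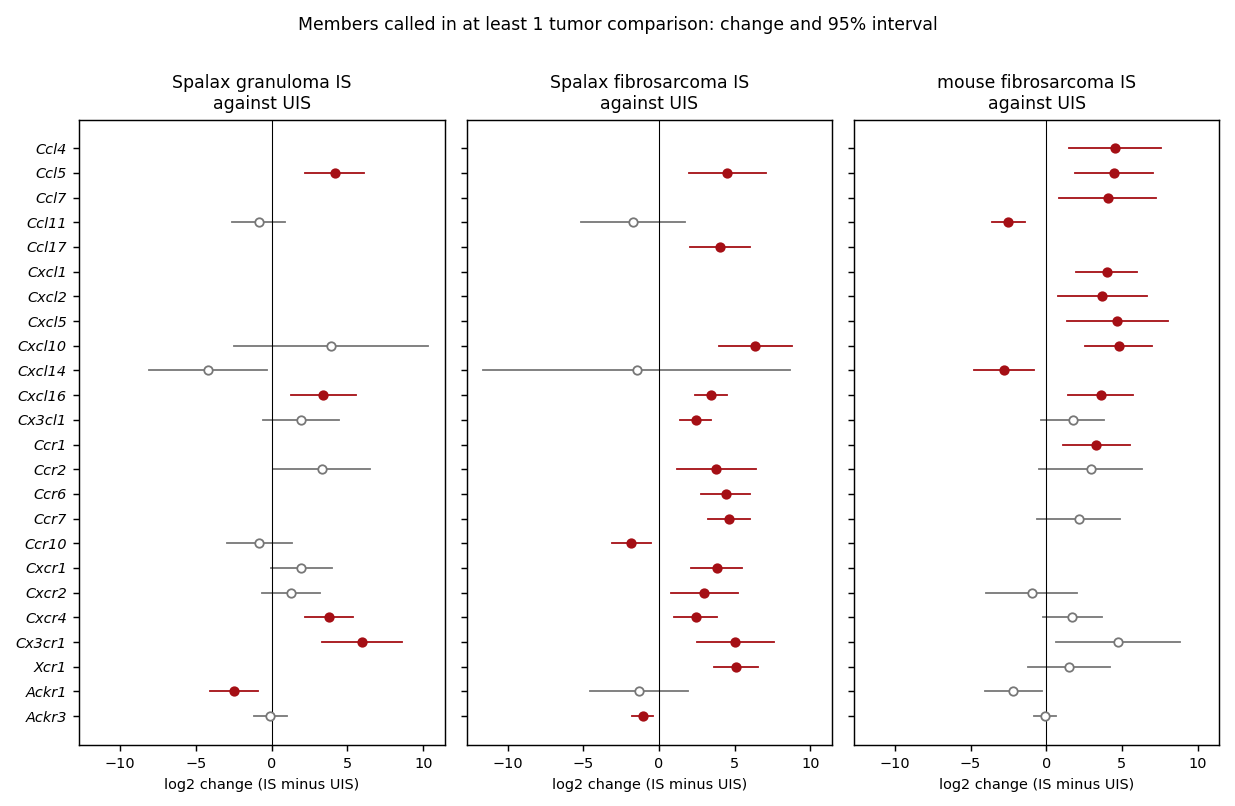
Fitted difference (log2 of IS over UIS, with its 95% interval) for members called in at least 1 of Spalax granuloma, Spalax fibrosarcoma and mouse fibrosarcoma, with filled red points where the adjusted p was at most 0.05. Most points lie to the right of 0, with Ccl5 at 4.16, 4.52 and 4.48, and the called decreases are Ackr1 in granuloma, Ackr3 and Ccr10 in Spalax fibrosarcoma, and Ccl11 and Cxcl14 in mouse. In Spalax fibrosarcoma Ccl17, Ccr6, Ccr7, Cx3cr1, Cxcl10, Cxcr1, Cxcr2 and Xcr1 passed the minimum value through IS alone, and Ccr10 through UIS alone. Cxcl2 in mouse passed through IS alone as well. The red points of these members are descriptions only, since they had to differ.

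Ccl5 and Cxcl16 were called in all 3 lesion comparisons, each higher. Granuloma and Spalax fibrosarcoma shared Ccl5, Cx3cr1, Cxcl16 and Cxcr4, which were 80% of the granuloma calls and 25% of the fibrosarcoma calls. Spalax and mouse fibrosarcoma shared 4 calls, with Ccl5, Cxcl10 and Cxcl16 among them, or 25% of the Spalax calls and 33.3% of the mouse calls. The share of calls held in common was not computed over all genes, so these percentages show nothing particular to the members. Of the members that rose in Spalax fibrosarcoma, Ccr7, Xcr1, Cx3cr1, Ccr2, Cx3cl1, Cxcr4 and Cxcr2 were tested in mouse without being called, although Cx3cr1, Ccr2 and Cx3cl1 were called there with the animal as a block. In Spalax fibrosarcoma Ccr7, Xcr1, Cx3cr1, Cxcr2 and Cxcl10 passed the minimum value through IS alone. Their calls there, shared with another comparison or not, are therefore descriptions only.

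Whether the difference between lesion and muscle was itself unlike between the species was tested as an interaction, in which a scaling factor common to a table cancels. Of 20 members tested, limma called 0, with 3.95% of 11085 genes called. An unadjusted p under 0.05 was reached by 2 of the 20, with 21.6% of all genes, edgeR called 0 (3.53% of all genes) and DESeq2 called 1, Ackr2 (15.4%). The change of Ccr7 was 2.50 ± 1.69 higher in Spalax, that of Xcr1 3.57 ± 1.67 higher and that of Cxcr2 3.97 ± 1.87 higher, and none was called. Ccr7, Xcr1 and Cxcr2 passed the minimum value in Spalax through IS alone and had to rise there. Their differences between species are therefore descriptions only, with no p. For Ccl5 the change differed by 0.03, with a 95% interval from -3.79 to 3.85, and for Cxcl16 by -0.14, from -2.92 to 2.65. These intervals span several units in either direction, and the sign of both differences changed with the processing.

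Of the atypical receptors, Ackr2 scavenges inflammatory CC chemokines. In Spalax fibrosarcoma it had 36.4 (2240) and 35.5 (2230) in UIS and 11.1 and 8.99 in IS (-1.75 ± 0.49, adjusted p = 0.0511). In mouse it had 12.1, 18.6 and 17.3 in UIS and 22.2, 23.1 and 16.8 in IS (0.37 ± 0.43, adjusted p = 0.519). Lower values in both Spalax lesions stood against overlapping values in mouse, and the change differed by -2.12 ± 0.78 (adjusted p = 0.159 with limma and 0.0239 with DESeq2). Ackr4, which scavenges Ccl19, Ccl21 and Ccl25, had 71.5 and 42.7 in UIS and 24.6 and 12.0 in IS of Spalax fibrosarcoma. Its mouse values were 3.63 (1019), 2.06 (1023) and 7.20 (512) in UIS and 12.4, 297 and 12.1 in IS. The change differed by -4.56 ± 1.84 and was not called. Mouse Ackr4 passed the minimum value through IS alone, so this difference is a description only.

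**Figure D4:**
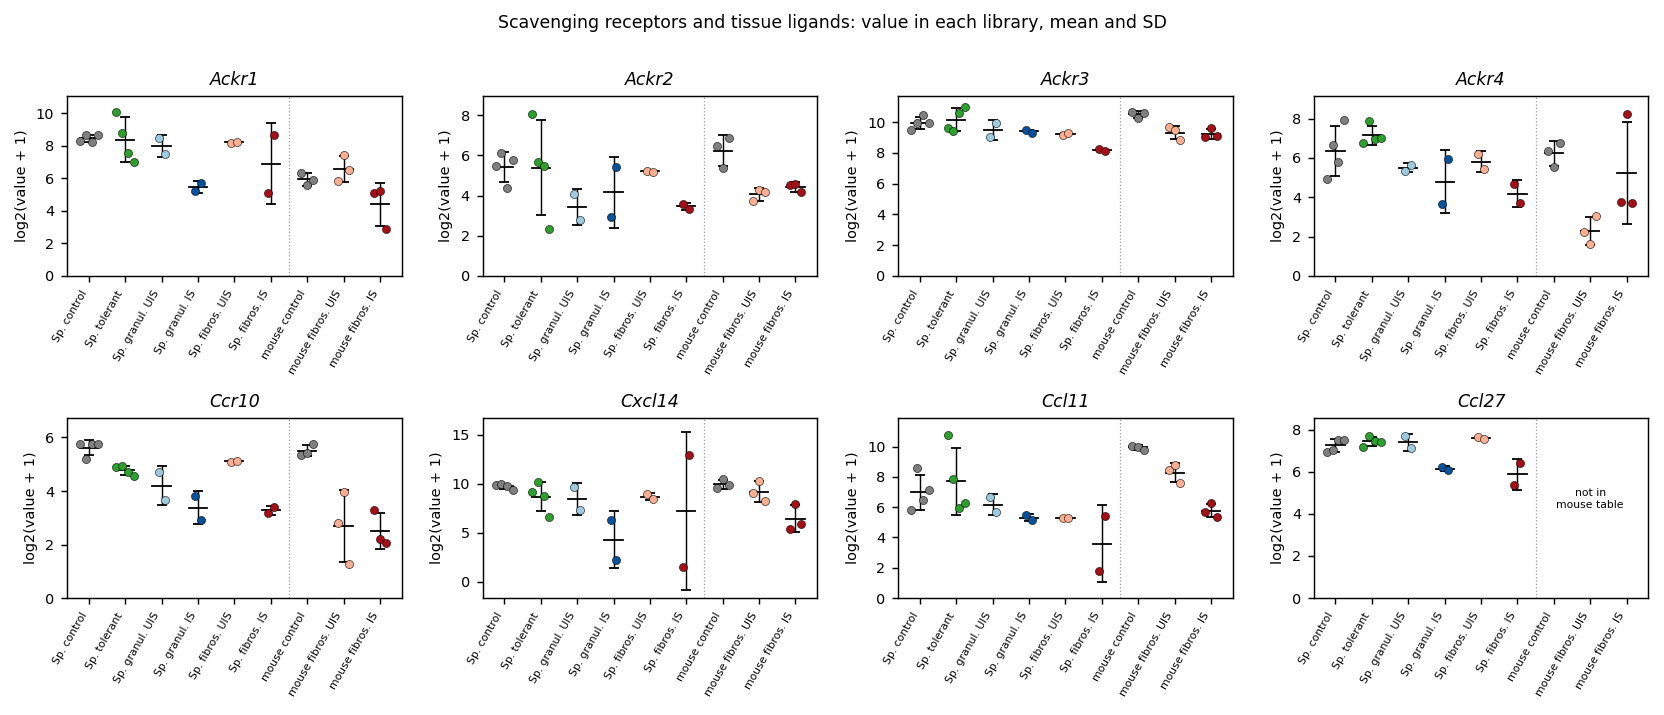
Normalised read counts of members with lower values in a lesion or on the uninjected side, as log2(value + 1) for each library, grouped as control, tolerant, UIS and IS, with the group mean and SD. Mouse Ccl11 steps from 880 to 1043 in controls to 193 to 438 in UIS and 40.5 to 75.3 in IS, and Spalax Cxcl14 spans 1.84 to 7694 among fibrosarcoma IS libraries.

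Fibrosarcoma and granuloma were also set against each other on the injected side. No member of 31 was called by limma, edgeR or DESeq2, with 0% of 14562 genes called by limma, edgeR 0% and DESeq2 1.05%. An unadjusted p under 0.05 was reached by 1 member and 4.06% of all genes. That member was Ackr3, with 709 (600) and 632 (976) in granuloma and 299 (2240) and 272 (2230) in fibrosarcoma, a difference of -1.23 ± 0.32 (adjusted p = 1). The lesion values did not overlap for Ackr3. Cxcr4 (769 and 865 against 713 and 336) and Cxcr1 (43.6 and 32.6 against 75.0 and 71.4) did not overlap either, and this held for 31.4% of all genes.

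Muscle on the uninjected side of tumor-bearing Spalax was compared with muscle of untreated animals. Limma called 0 of 17 members and 0% of 13909 genes. At an unadjusted p under 0.05 there were 3 members and 16.6% of genes, and edgeR and DESeq2 called 0 members, while DESeq2 called 3.74% of genes. The 3 were Cxcr4, Cxcl14 and Ccr10. Cxcr4 had 202, 200, 150 and 129 in controls (1042, 1075, 2095 and 6038) and 98.9 (600), 34.1 (976), 116 (2240) and 71.1 (2230) in UIS, with no overlap and a difference of -1.19 ± 0.39 (adjusted p = 0.226). Ccr10 had 35.9 to 53.6 in controls and 11.8 to 34.1 in UIS, again without overlap (-0.97 ± 0.40, adjusted p = 0.275), as for 12.7% of all genes. Cxcl14 had 634 to 965 in controls and 159 to 782 in UIS (-1.14 ± 0.42, adjusted p = 0.248).

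Ccl1, a ligand of Ccr8 that attracts T cells and monocytes and that the study lists among its genes, had 36.4 (1042), 34.2 (1075), 4.99 (2095) and 86.5 (6038) in controls. It had 0 (600), 2.36 (976), 1.21 (2240) and 0 (2230) in UIS, all below the lowest control, while 12.7% of the genes tested did not overlap. It did not enter the fit because fewer than 4 of these libraries reached a value of 10. Without the filter the difference was -4.13 ± 0.81 (adjusted p = 0.179). In the tolerant animals it had 12.8 (2251), 5.48 (2261), 132 (2218) and 209 (2375), which overlapped the controls (0.46 ± 1.19, adjusted p = 0.976). The higher tolerant values belonged to the animals sampled at 30 months and the lower ones to those at 18 months. Its receptor Ccr8 stayed at 3.29 or less in the same libraries, except for 6.01 in tolerant 2251. In mouse Ccl1 was 0 in all 3 controls and at most 1.21 in UIS.

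The tolerant animals were compared with the same controls. Limma, edgeR and DESeq2 called 0 of 19 members, and limma called 0% of 14020 genes and DESeq2 0.428%. An unadjusted p under 0.05 was reached by 1 member and 5.23% of genes. That member was Ccr10, with 28.5, 29.6, 25.1 and 22.8 in tolerant animals (2251, 2261, 2218 and 2375) and a difference of -0.85 ± 0.32 (adjusted p = 0.912). These values lay below every control, and the groups did not overlap for 3.86% of all genes. Next in order of p were Cxcl14, with 99.2 to 1116 in tolerant animals (-1.05 ± 0.60), and Ackr4, with 108 to 231 in tolerant animals and 29.8 to 245 in controls (0.81 ± 0.58). Values of both overlapped between the groups.

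Tolerant animal 2251 stood apart from the other 3. Cx3cr1 was 651 there and 1.34 to 14.2 in the others, and Ccr3, the eosinophil receptor, was 135 and 0 to 2.19. The ligands Ccl11 (1770 and 60.8 to 230), Ccl14 (701 and 56.3 to 331) and Ccl5 (206 and 6.70 to 26.3) were also highest in 2251. Its macrophage sum was 33170, with 2666 to 8871 in the others, and its muscle-fiber sum of 963797 was the lowest outside the lesions. Without 2251 the number of members called stayed at 0 of 20 tested.

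In mouse, uninjected muscle of tumor-bearing animals was compared with that of controls. Limma and edgeR called 0 of 33 members, limma called 0% of 14792 genes, and an unadjusted p under 0.05 was reached by 7 members and 11% of genes. DESeq2 called 6, with 2.31% of all genes, and these were Ackr2, Ackr3, Ackr4, Ccl11, Ccl24 and Ccr10, all lower in UIS. Ackr4 had 80.7 (M1), 46.2 (M2) and 108 (M5) in controls and 3.63 (1019), 2.06 (1023) and 7.20 (512) in UIS, a difference of -3.94 ± 0.57 (limma adjusted p = 0.293). Ccl24, another eosinophil attractant, had 62.7, 131 and 104 in controls and 19.4, 16.5 and 5.76 in UIS (-2.84 ± 0.56, adjusted p = 0.297). Ccl11 had 1043, 1018 and 880 in controls and 354, 438 and 193 in UIS (-1.65 ± 0.34, adjusted p = 0.319). For these 3 the groups did not overlap, as for 21.2% of all genes. Brown-fat markers summed to 34925 to 56476 in controls and 13 to 19228 in UIS, and fat markers to 13679 to 41757 and 3933 to 20734, and their part in these differences was not tested.

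Genes that act below the receptors (G proteins, arrestins, regulators of small GTPases and integrins, 44 in the list) were examined beside the members. In granuloma 17 rose and 0 fell (38.6%, with 24.3% of all genes called), in Spalax fibrosarcoma 30 rose and 1 fell (70.5%, with 36.3%) and in mouse 23 rose and 1 fell (54.5%, with 45.1%). Which of them reached the minimum value through IS alone was not determined, so these shares are descriptions only. The adjusted p-values given next carry the same limit. Vav1, an exchange factor for Rac, rose by 3.42 ± 0.74, 3.80 ± 0.33 and 3.47 ± 0.93 in that order (adjusted p = 0.0301, 0.00454 and 0.0240). Itgb2, the leukocyte integrin chain, rose by 3.84 ± 0.90, 3.76 ± 0.54 and 3.14 ± 0.94 (adjusted p = 0.0365, 0.0113 and 0.0347). Gnai2, the inhibitory G-protein subunit used by chemokine receptors, rose by 1.69 ± 0.31, 1.68 ± 0.23 and 1.34 ± 0.33 (adjusted p = 0.0205, 0.01 and 0.0174). Rgs1, which ends that signal, rose by 3.80 ± 0.85, 3.89 ± 1.05 and 5.26 ± 0.93 (adjusted p = 0.0328, 0.0479 and 0.00653). Many of these genes are expressed by leukocytes in general. None was called by limma or edgeR in the other 5 comparisons, in each of which 0 to 4 reached an unadjusted p under 0.05 (with 4.06% to 21.6% of all genes), and DESeq2 called 1 lower in Spalax UIS against control and 2 higher in the test between species.

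Genes related to the family but outside the name rule gave mixed results. Mif, a ligand of Cxcr2 and Cxcr4, rose in granuloma (1.64 ± 0.44, adjusted p = 0.0492) and Spalax fibrosarcoma (1.5 ± 0.29, adjusted p = 0.0222), and had 0.89 ± 0.49 in mouse (adjusted p = 0.174). Dpp4, a protease that trims Cxcl10 and Cxcl12, fell by 3.15 ± 0.81 in granuloma (adjusted p = 0.0443). In mouse fibrosarcoma Cklf (2.73 ± 0.59, adjusted p = 0.0122) and the chemerin receptor Cmklr1 (1.78 ± 0.56, adjusted p = 0.0400) rose, and Ccrl2, which binds chemerin without signalling, fell by 2.21 ± 0.55 (adjusted p = 0.0188). Mouse Ccl21a and Ccl27a, the genes nearest in name to Spalax Ccl21 and Ccl27, had 0.36 ± 0.55 and -1.36 ± 0.54 (adjusted p = 0.616 and 0.0791).

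Mouse chemokine genes lie in clusters, and neighbours did not share a direction throughout. In the cluster at chr11:82035571-82305690 (GRCm38) the order is Ccl2, Ccl7, Ccl11, Ccl12, Ccl8 and Ccl1. Ccl11 was lower in the tumor of every mouse, while the other 5 were higher in every mouse, Ccl1 at values under 10. Ccl12 had 127 (1019), 23.7 (1023) and 1.44 (512) in UIS and 730, 786 and 74.7 in IS, and Ccl8 had 231, 180 and 2.88 in UIS and 1742, 1126 and 45.8 in IS. In the cluster at chr11:83525778-83664683, Ccl5, Ccl9, Ccl6, Ccl3 and Ccl4 were all higher in every mouse. The same held for Cxcl5, Cxcl3, Cxcl1 and Cxcl2 at chr5:90759360-90905938 and for Cxcl9, Cxcl10 and Cxcl11 at chr5:92321347-92365485. At chr8:94745590-94812036 directions were mixed, with Ccl17 at 4.32 in UIS and 1.05 in IS of 512. They were also mixed among the chromosome 9 receptors, where mouse 512 was lower in IS for Ccr9 (4.32 and 2.11) and Xcr1 (10.1 and 7.37). The share of all genes with the same direction in every mouse was not computed.

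**Figure D5:**
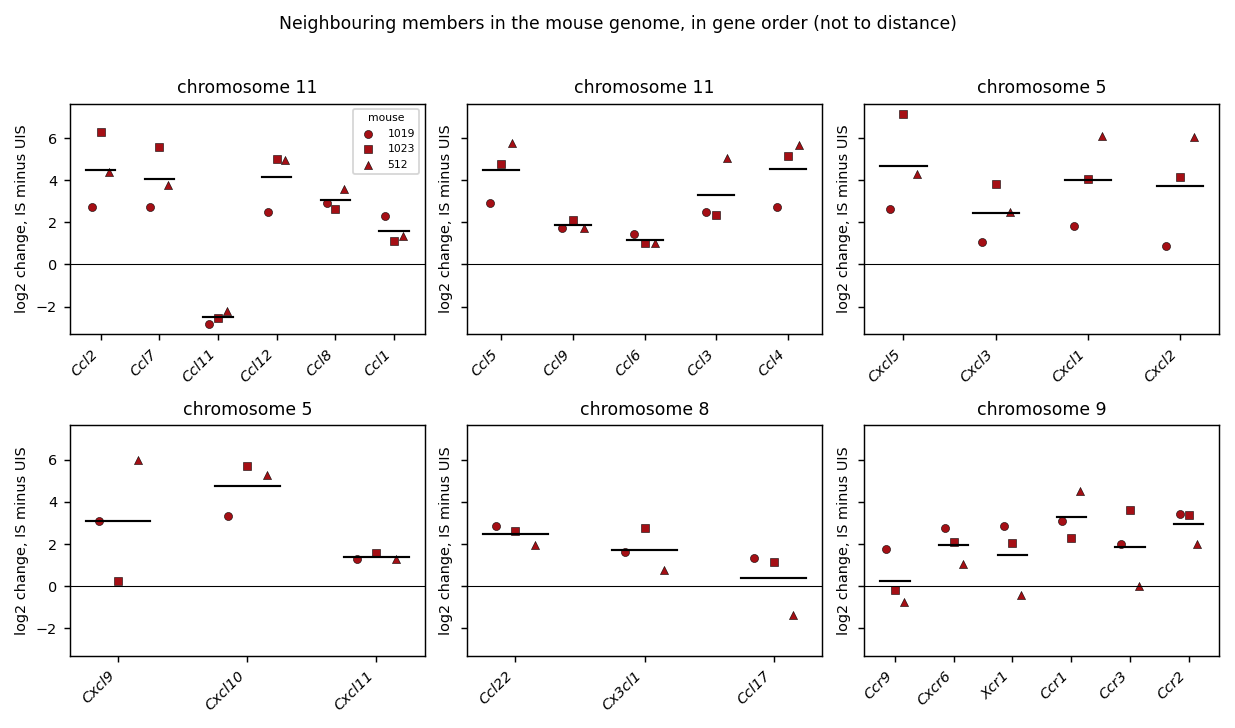
Difference between injected and uninjected side (log2 scale) in each of the 3 mice for members that lie in clusters, in the order of the genes along the chromosome, with 1 point per mouse. Ccl11 sits below 0 in all 3 mice between neighbours that sit above 0.

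The counting of some mouse members is uncertain. Of the 50-base stretches of Ccl19, 59.1% also occur in other genes, among them Gm2564 and Ccl19-ps3, as do 5.4% of those of Cxcl2 (shared with Cxcl3) and 2.3% of those of Ccr2. Exons of Ackr1 lie under Cadm3 on the same strand over 25.7% of their bases. Genes on the opposite strand cover 18.3% of the exon bases of Cxcl16 (Zmynd15), 41.7% of Cxcl11 (Gm2673) and 5.9% of Cxcl10 (Art3). The strand setting of the counting was not given in the sources used here, so reads of these pairs may not be separable.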

How the data were processed

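RNA from muscle or lesions of Spalax and mouse was sequenced with stranded TruSeq libraries, single-end for 101 cycles. The authors trimmed the reads, mapped those of Spalax to a Spalax genome and those of mouse to the mouse genome with TopHat, per the study's methods (the submitters' processing notes name version 1.4.1 and GRCm38 for all samples, Spalax included, which differs from the methods), counted genes with HTSeq and deposited a signal per gene and library, namely read counts divided by 1 size factor per library. Dividing by what 1 read was worth in each library gave whole reads for all values within 0.01, and these recovered reads were used for edgeR and DESeq2 only. In 2387 Spalax gene names a lower-case t stood as a comma and was restored. The log2(value + 1) of the deposited signal was tested with limma 3.58.1 (lmFit, eBayes with trend, R 4.3.3) over all genes that reached 10 in a number of libraries equal to the size of the smaller group, with Benjamini-Hochberg adjustment over all genes and calls at 0.05. The authors' own test was a consensus of edgeR and DESeq2.

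Alternatives were a pseudocount of 0.1, no filter, scaling by total reads, edgeR 4.0.16, DESeq2 1.42.0, the animal as a block and each library left out. The specimen numbers tie IS to UIS of each tumor-bearing animal, so that they are pairs by design. Deviations from the group means correlated at 0.00925 in granuloma, -0.00186 in Spalax fibrosarcoma and 0.0469 to 0.178 in mouse. Scripts were tested on simulated data. One member is included in the counts and is otherwise not reported here. The members, gene lists and named genes were chosen with earlier results of these data known. Values were given for the largest changes among called members, for the 3 lowest p where none was called, for Ccl1 and for well-known ligand and receptor pairs, and members that stood out otherwise were chosen after their values were seen. Per the labels, libraries of a group came from separate animals. Levels were not compared between the tables, which were normalised separately.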

Additional observations from a re-analysis of the deposited data

Results flagged for a closer look

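Named genes were looked at in the 4 control and in the 4 tolerant Spalax libraries, where a value of 10 was reached. Of these 40 results of a gene in a group, 3 held a library far from the other 3, at a gap beyond Dixon's 95% limit. Chance gives such a gap in about 1 in 20 results, and these were not independent, since all genes were read in the same libraries. Ccr10 was 35.9 in control 1075, with 52.7 to 53.6 in the other controls. Cxcl12 was 187 in control 2095, with 460 to 539 in the others. Xcr1 was 11.3 in tolerant 2251, the animal with the highest macrophage sum, and 0 in the other 3, where any value above 0 would stand apart by this measure.

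Ackr4 moved in opposite directions in the fibrosarcomas of the species, with -1.63 in Spalax, lower in both animals, and 2.94 in mouse, higher in all 3. Neither was called alone (adjusted p = 0.103 in Spalax), nor was the difference between species. Mouse Ackr4 reached the minimum value through IS alone, so its rise there and the difference between species are descriptions only.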

How the results depend on the processing

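Many calls depended on single libraries, with the exception of Ccl11, Cxcl1 and Cxcl10 in mouse, called whichever library was left out. In granuloma, where 5 members were called, 3 were called with no filter and 12 with DESeq2, and the calls did not hold with any library left out. In Spalax fibrosarcoma, with 16, leaving out a library gave 0 to 23. In mouse fibrosarcoma, with 12, scaling by total reads gave 21, DESeq2 20, the animal as a replicate block 24, and leaving out a library 4 to 16. Among the members tested, blocking lost 1 call (Ackr1) and gained 1 (Cxcl14) in granuloma, lost 2 (Ackr3 and Ccr10) and gained 0 in Spalax fibrosarcoma, gained 12 and lost 0 in mouse, and changed no other call. DESeq2 called 6 in mouse UIS against control. In the test between species DESeq2 called 1 (Ackr2), no filter 1 (Ccl24), and leaving out a library 0 to 1 (Cxcl14, without IS of 2240). All other counts of calls stayed within 1.5 times. The sign changed for Ackr3 in granuloma (0.63 by total reads, -0.55 to 0.34 without a library), Cxcl12 in Spalax fibrosarcoma (0.62 by total reads, 0.94 edgeR, 0.90 DESeq2, -2.23 to 1.86 without a library), Cxcl14 in Spalax fibrosarcoma (3.21 edgeR, 3.18 DESeq2, -7.17 to 4.23 without a library), Cxcr2 in mouse (0.063 by total reads, -1.69 to 0.33 without a library), Ackr3 in mouse (0.98 by total reads, -0.33 to 0.088 without a library), Cxcr5 in mouse (0.14 by total reads), Cxcl9 in granuloma (-2.34 to 5.79 without a library) and Ccl1 in tolerant animals (-0.34 to 1.34 without a library). In the test between species it changed for Ccl5 (-0.0055 with a pseudocount of 0.1, -0.21 by total reads, -1.23 to 1.30 without a library) and Cxcl16 (0.44 edgeR, 0.48 DESeq2, -1.08 to 0.64 without a library). The cause was not tested. Fits without a library of a Spalax lesion pair leave 1 sample on a side, assumed to vary like the other side. Members under 10 reads were not resolved at this depth.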
